A study of Terfezia claveryi
Helianthemum almeriense and Terfezia claveryi with 9 samples.

Results

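A set of 139 gene models of the desert truffle Terfezia claveryi, of 12765 in the deposited tables, was far more abundant in mycorrhizal roots than in cultured mycelium and lay within 4-fold between drought-stressed and well-watered roots. They were chosen by their measured levels in the same 9 libraries described here. A level is in CPM, which is the total gene reads of a gene model divided by the sum over its library and scaled to 1e+06. Each of the 139 had a mean of at least 20 CPM in both root groups, means of at least 8 times the culture mean in both, a ratio of the root means between 0.25 and 4, and a lowest root library above the highest culture. The differences from culture and the likeness between the watering regimes are therefore properties by which the gene models were picked, and they are given below as a description. Where edgeR calls of the members are printed, they are read only beside the share of all gene models called. Fitted changes are printed for some members as a description, and their SEs do not cover the choice of those members.

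Drought-stressed mycorrhizal plants (DSMP) and well-watered mycorrhizal plants (WWMP) were Helianthemum almeriense, a Mediterranean rockrose shrub, inoculated with truffle spores at the age of 2 months. Soil moisture was lowered to 40% in the drought group, until the water potential of the shoot was under -2 MPa, and was held above 75% in the well-watered group; watering was changed 3 months after inoculation. Free-living mycelium (FLM) was strain T7, shaken in liquid MMNo medium in the dark at 23 °C for 3 months. Each group had 3 libraries, which the labels call biological replicates, from 100 mg of secondary and tertiary roots or of mycelium. The cultures were 1 strain and the roots were inoculated with spores, so the fungal source, the growth conditions and the presence of a host cannot be told apart in any comparison with culture. Uninoculated plants, which the labels' growth protocol also names, were not analysed here.

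Desert truffles are ascomycete fungi that form a mycorrhiza in which hyphae grow between and, in part, inside the root cells of the host. In mycorrhizal fungi in general, genes that are read in the root and scarcely in pure culture often encode nutrient transporters, enzymes acting on cell walls and small secreted proteins that act at the contact with the plant. The files pair no identifier with a gene name, product or position, so none of these roles is given to a gene model here, and pathways could not be counted. Identifiers are those of the JGI catalogue for the species, as deposited.

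Total gene reads ran from 3493361 to 5470044 per drought library, 869998 to 1635015 per well-watered library and 15855363 to 31854784 per culture. In bulk roots, fewer fungal cells and less RNA per cell cannot be told apart, and CPM are relative to the reads assigned to the fungus in each library. Roots also hold plant RNA, and whether plant reads were counted on any of these gene models was not tested. Drought replicate 2 and well-watered replicate 1 differed most from the other libraries of their groups: over the 139 gene models the Pearson correlation of log2(CPM + 0.5) was 0.96 between drought replicates 1 and 3, and 0.79 and 0.81 between replicate 2 and each of them. It was 0.96 between well-watered replicates 2 and 3, and 0.82 and 0.78 between replicate 1 and each of them. The same libraries stood apart over the 5071 other gene models with at least 20 CPM in both root groups. There the correlation was 0.96 between drought replicates 1 and 3, and 0.81 and 0.79 between replicate 2 and each of them. It was 0.94 between well-watered replicates 2 and 3, and 0.86 and 0.83 between replicate 1 and each of them. Among the cultures, replicate 1 differed most, and it was the lowest culture in 82 members, or 59.0%, against 38.2% of the 5071. Over the 139 gene models the correlation was 0.98 between culture replicates 2 and 3, and 0.94 and 0.93 between replicate 1 and each of them. Over the 5071 it was 0.995, and 0.972 and 0.975. These correlations describe likeness across gene models, which do not count as replicates.

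Of all gene models, 5210 had at least 20 CPM in both root groups. Among these, 176 were also at least 8-fold above culture in both root groups, 148 of the 176 had root means within 4-fold of each other, and 139 of the 148 had no root library at or below a culture. Read in another order, 166 gene models met every condition apart from the one on the ratio of the 2 root means. Of these, 139, or 83.7%, lay within 4-fold. Of the 27 outside, 12 were higher in drought roots and 15 were higher in well-watered roots. The other conditions ask for 20 CPM and 8-fold over culture in both root groups. They could remove gene models high under a single watering regime, so the share is no measure of independence from watering. The remaining 5071 gene models with at least 20 CPM in both root groups serve below as the comparison set. Their median culture mean was 86.6 CPM, against 2.39 CPM in the members. Root means were within 2-fold of each other in 73.9% of the comparison set, against 63.3% of the members.

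**Figure D1:**
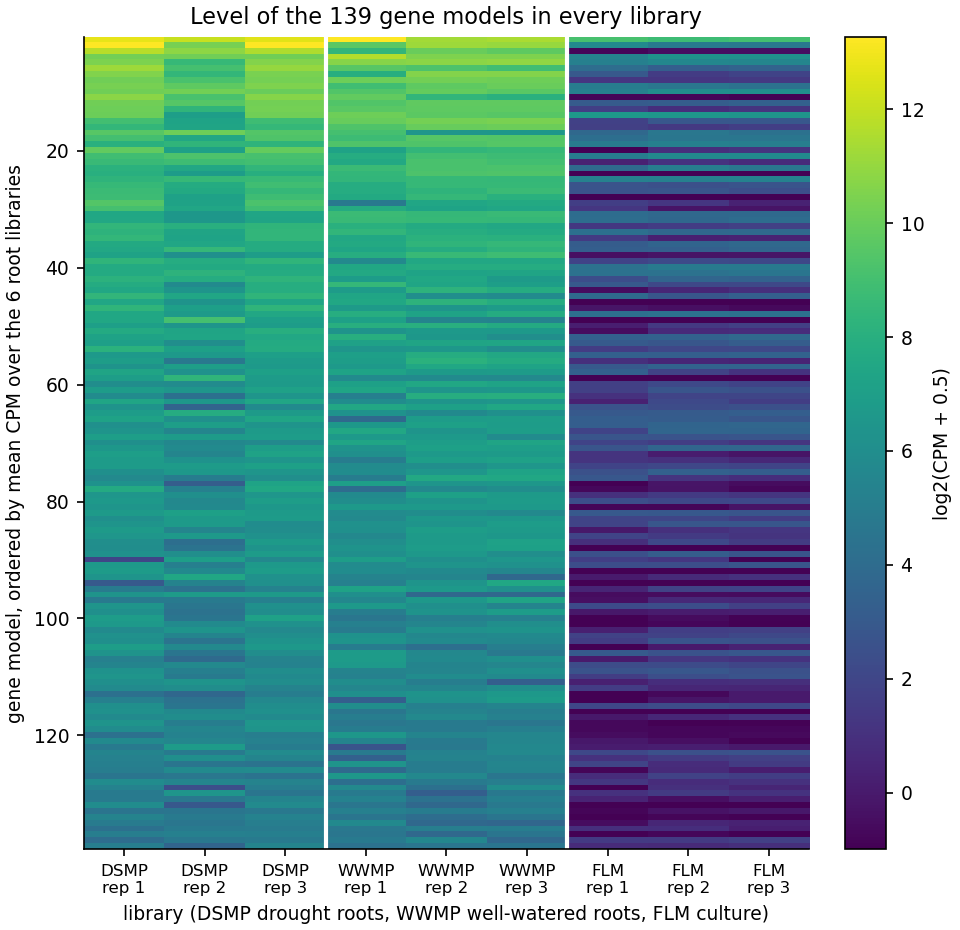
Level of each of the 139 gene models (rows, ordered by their mean CPM over the 6 root libraries) in each of the 9 libraries (columns), as log2(CPM + 0.5) on a colour scale. Rows are brighter in the 6 root libraries than in the 3 cultures throughout, which the choice of gene models fixes, while drought replicate 2 is the lowest drought library in 96 rows.

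As a group the 139 gene models took 5.44%, 2.83% and 5.45% of the total gene reads in drought replicates 1, 2 and 3, 3.88%, 3.68% and 3.70% in well-watered replicates 1, 2 and 3, and 0.146%, 0.148% and 0.152% in the cultures. The mean was 4.57 ± 1.51% in drought roots, 3.75 ± 0.110% under ample water and 0.149 ± 0.00279% in cultures (SD, n = 3 each). Drought replicates 1 and 3 lay above every well-watered library and drought replicate 2 below every one of them, so the regimes overlapped in this sum. Without drought replicate 2 the drought mean was 5.45%. The summed level was 30.8-fold that of cultures in drought roots and 25.2-fold in well-watered roots, by the choice of gene models.

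**Figure D2:**
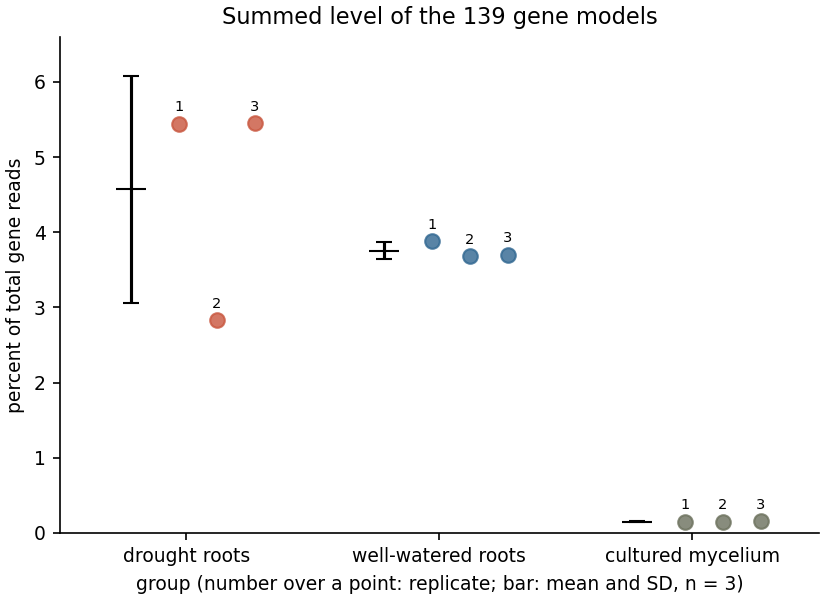
Percent of total gene reads taken by the 139 gene models in each library (points, numbered by replicate), with the mean and SD of each group (bars, n = 3). Drought replicates 1 and 3 sit at 5.44% and 5.45%, drought replicate 2 at 2.83%, the well-watered libraries at 3.68% to 3.88% and the cultures near 0.15%.

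The levels of single members covered a wide range. Over the 139, the mean level ran from 21.6 to 6957 CPM in drought roots with a median of 97.8, from 20.1 to 5020 CPM in well-watered roots with a median of 102, and from 0 to 507 CPM in cultures with a median of 2.39. Averaged over the 6 root libraries, 8 members stood at 1000 CPM or more, 64 between 100 and 1000 CPM and 67 below 100 CPM. Members made up 10 of the 100 most abundant gene models of drought roots and 7 of the 100 most abundant of well-watered roots. They made up 0 of the 100 most abundant of cultures, where the limit of 8-fold over culture left little room for a member. Every member had reads in all 6 root libraries, and 137 had at least 10 reads in each of them.

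The most abundant member was jgi|Tercla1|1162993|, with a length of 1286 bases. Its level was 6748, 4401 and 6456 CPM in drought roots, 9674, 2532 and 2854 CPM in well-watered roots, and 560, 447 and 515 CPM in cultures. Well-watered replicate 1 was above every drought library and the other well-watered libraries were below every one, so the regimes overlapped. The ratio of drought to well-watered means was 1.17, and 2.18 with well-watered replicate 1 left out. It ranked 7th among all gene models in drought roots, 11th in well-watered roots and 280th in cultures, the highest culture level of the set.

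Second came jgi|Tercla1|1275873|, a short gene model of 318 bases. Its level was 9924, 1283 and 9664 CPM in drought roots, 793, 2348 and 2134 CPM in well-watered roots, and 57.2, 29.5 and 26.3 CPM in cultures. Drought replicate 2 fell among the well-watered libraries, while the other drought libraries were above all of them. The drought mean was 3.96 times the well-watered mean, the largest ratio inside the limit of 4, and it was 5.57 times without drought replicate 2 and 3.10 times without well-watered replicate 1. Per length, these 2 gene models were also the most abundant of the set: jgi|Tercla1|1275873| averaged 21878 RPKM in drought roots and 5530 RPKM in well-watered roots, and jgi|Tercla1|1162993| averaged 4563 and 3904 RPKM, where RPKM is the deposited read level scaled by gene length and library total.

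Together these 2 gene models made up 20.1% to 30.6% of the members' summed level in single drought libraries, 13.3% to 27.0% in single well-watered libraries and 32.1% to 42.2% in single cultures. The other 6 members with at least 1000 CPM over the roots ranged from 1083 to 1758 CPM. Lengths among the 8 ran from 318 to 2686 bases.

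Culture levels of the members formed a continuous range, with quartiles of 0.703 and 7.35 CPM. The culture mean was below 1 CPM for 42 members, between 1 and 10 CPM for 70 and at least 10 CPM for 27. For the 129 members with a culture read, the drought mean was 8.12 to 32092 times the culture mean with a median of 31.7, and the well-watered mean was 8.05 to 12071 times the culture mean with a median of 36.4. Counting members without a culture read as past every limit, 94 were at least 16-fold, 68 at least 32-fold, 48 at least 64-fold and 34 at least 128-fold above culture in both root groups. In the edgeR quasi-likelihood test, 139 of 139 members were called higher in drought roots and 139 of 139 higher in well-watered roots, each relative to cultures, at a Benjamini-Hochberg adjusted p under 0.05. Of all gene models tested for drought roots against cultures, 43.2% were called, 21.4% as higher and 21.8% as lower. For well-watered roots against cultures 48.9% were called, 24.4% as higher and 24.5% as lower. Both comparisons were used to choose the members and share the cultures, so nothing is read from these counts.

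**Figure D3:**
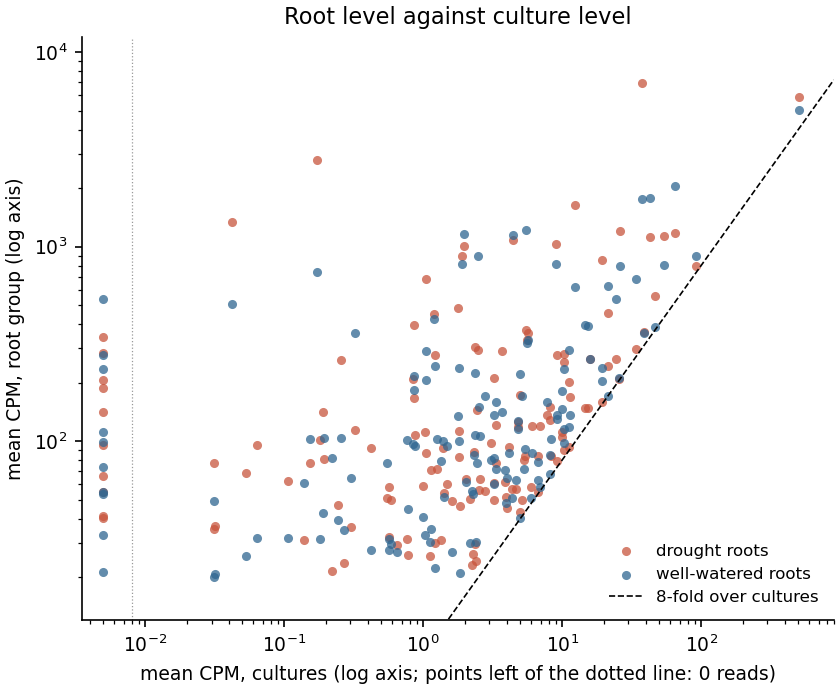
Mean CPM of each of the 139 gene models in drought roots and in well-watered roots (vertical axis, log scale, 3 libraries per mean) against its mean CPM in cultures (horizontal axis, log scale). All points lie on or above the dashed line of 8-fold, by the choice of gene models, and the 10 gene models without a culture read are drawn at the left edge.

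In 10 members no read was counted in any culture, which at the depth of the 3 cultures together places the level below 0.0386 CPM (3 counts over the group). That floor was 0.0654 CPM without culture replicate 2 and 0.0629 CPM without culture replicate 3, and it covers counting error only. These 10 averaged 31.2 to 374 CPM over the 6 root libraries. Their means were 40.4 to 343 CPM in drought roots, with a median of 118, and 21.3 to 540 CPM in well-watered roots, with a median of 86.5. The drought mean was the higher one in 6 of the 10, and 8 of the 10 had no read shared with another gene model. A gene that is silent in culture and a gene that is missing from strain T7 cannot be told apart at 0 reads.

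The most abundant of the 10 was jgi|Tercla1|1092067|, with 3633 bases. It had 252, 120 and 250 CPM in drought roots, 356, 623 and 640 CPM in well-watered roots, and no read in cultures. Every drought library was below every well-watered library, and drought roots were at least 5550-fold and well-watered roots at least 13832-fold above culture. The bounds were 3275-fold and 8162-fold without culture replicate 2, and to 3408-fold and 8492-fold without culture replicate 3, where the floor is higher.

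Next was jgi|Tercla1|1273503|, with 2112 bases, at 436, 142 and 451 CPM in drought roots and 202, 368 and 267 CPM in well-watered roots, and again without a culture read. Here the regimes overlapped, because drought replicate 2 was below every well-watered library. Drought roots were at least 9245-fold and well-watered roots at least 7442-fold above culture, or at least 5455-fold and 4391-fold without culture replicate 2, and 5676-fold and 4569-fold without culture replicate 3.

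A further 8 members had 1 to 10 reads over the 3 cultures. The most abundant of these, singled out after its values were seen, was jgi|Tercla1|1050376|, with 1908 bases. It had 1795, 571 and 1673 CPM in drought roots, 912, 336 and 271 CPM in well-watered roots, and 3 reads in cultures. The pooled ratio to culture was 36628 in drought roots (95% Clopper-Pearson interval 12531 to 177629) and 13508 in well-watered roots (interval 4616 to 65557). These ratios were 64839 and 23912 without culture replicate 2, and 22488 and 8294 without culture replicate 3, while the well-watered ratio was 8127 without well-watered replicate 1. Also chosen after its values were seen, jgi|Tercla1|1228468| (1364 bases) had 3407, 1824 and 3090 CPM in drought roots, 333, 1045 and 849 CPM in well-watered roots and 15 reads in cultures, or 0.172 ± 0.0946 CPM (SD, n = 3). All 3 drought libraries of it were above all 3 well-watered libraries.

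Watering was compared within the set next, with the restriction that the rule had removed every ratio of more than 4. The drought mean was above the well-watered mean in 77 members and below it in 62, and the median log2 ratio of drought to well-watered means was 0.05. Of the 5071 comparison gene models, 56.7% had the higher mean in drought roots, against 55.4% of the members. The sign of the median depends on the scaling: TMM (trimmed mean of M values) shifts log2 ratios of drought to well-watered roots by -0.22 at the level of the groups relative to column sums, by amounts that differ somewhat between members, and the members' median was then -0.16. Without drought replicate 2 it was 0.25. The means of the regimes were within 1.5-fold of each other in 64 members and within 2-fold in 88, or 63.3%, against 73.9% of the comparison set; 28 members were more than 2-fold higher and 23 more than 2-fold lower in drought roots.

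**Figure D4:**
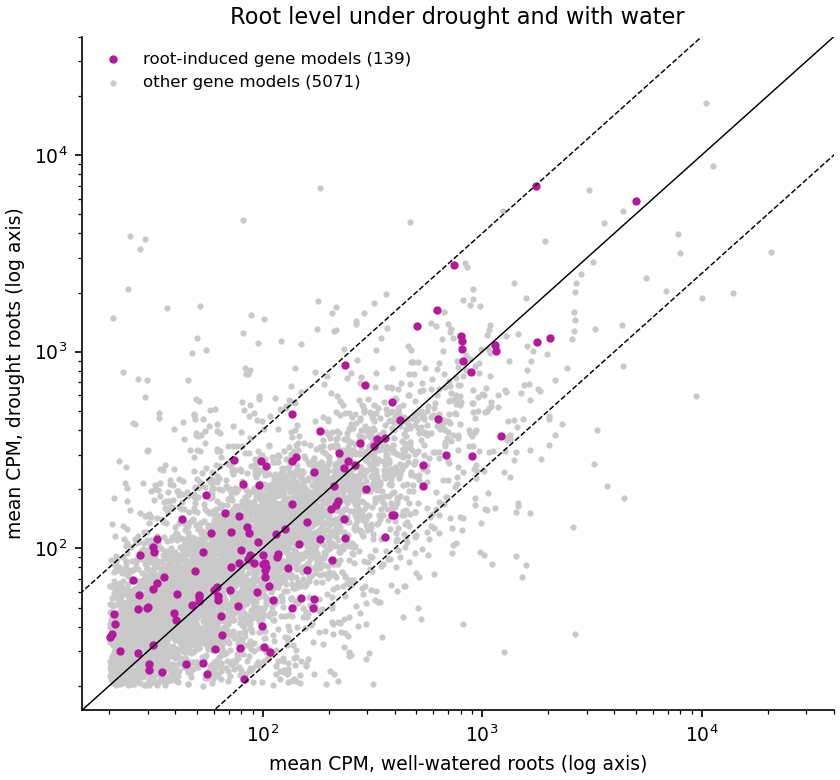
Mean CPM in drought roots against mean CPM in well-watered roots (both log axes, 3 libraries per mean) for the 139 gene models and for the 5071 other gene models with at least 20 CPM in both root groups. The solid line marks equal means and the dashed lines a 4-fold difference, which the choice of gene models sets as the limit; 77 of the 139 lie above the solid line and 62 below it.

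By single libraries, the regimes overlapped in 90 of the 139 members. Every drought library was above every well-watered library in 26 members, or 18.7%, against 25.5% of the 8029 gene models tested between the regimes, and every drought library was below every well-watered library in 23, or 16.5%, against 17.0%. With TMM scaling all drought libraries were above in 16 members, or 11.5%, against 19.5% of all gene models tested, and below in 30, or 21.6%, against 21.7%. With DESeq2 size factors they were above in 15 members, or 10.8%, against 19.8%, and below in 29, or 20.9%, against 21.7%. In the edgeR test between the regimes 25 members were called at an adjusted p under 0.05, which is 18.0% of the 139, against 19.8% of all gene models tested. Of these, 9 were higher in drought roots, or 6.47% of the members, against 9.53% of all gene models tested. The other 16 were lower, or 11.5% of the members, against 10.2%. Without drought replicate 1 the count was 13, or 9.35%, against 13.6% of all gene models tested in that fit. It was 7, or 5.04%, against 10.2% when well-watered replicate 2 was left out, and 9, or 6.47%, against 10.3% when well-watered replicate 3 was. Without drought replicate 2 it was 37, or 26.6%, against 20.7%. The members' share thus lay near that of all gene models with all 6 libraries, below it in 3 of these fits and above it in the other. The limit on the ratio was part of the rule, so none of these shares is a result about the members, and the 114 that were not called are not shown to be unaffected by drought.

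The 9 members called higher in drought roots had fitted log2 fold changes of 0.89 to 1.74, and mean levels of 92.0 to 2774 CPM in drought roots against 27.5 to 742 CPM in well-watered roots. The 16 called lower had fitted log2 fold changes of -2.08 to -1.17, and mean levels of 21.6 to 374 CPM in drought roots against 79.2 to 1213 CPM in well-watered roots.

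Behind the ratio of 3.96 described above, the next largest was that of jgi|Tercla1|1249875| (741 bases), a member without a culture read. It had 179, 536 and 132 CPM in drought roots and 140, 42.8 and 39.1 CPM in well-watered roots. The ratio of means was 3.82, but well-watered replicate 1 was above drought replicate 3, and the ratio was 2.10 without drought replicate 2 and 6.90 without well-watered replicate 1.

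At the other end was jgi|Tercla1|422198| (1213 bases), at 18.5, 13.0 and 33.2 CPM in drought roots, 69.0, 80.7 and 96.6 CPM in well-watered roots, and 0, 0.126 and 0.533 CPM in cultures. Its libraries did not overlap between the regimes, and its well-watered mean was 3.81 times its drought mean (fitted log2 fold change -2.08 ± 0.41, SE). jgi|Tercla1|1086342| (570 bases) had 29.6, 20.04 and 39.2 CPM in drought roots, 151, 101 and 71.3 CPM in well-watered roots, and 0.883, 2.98 and 3.17 CPM in cultures. It too was lower in every drought library than in every well-watered library, with a fitted log2 fold change of -1.99 ± 0.38 (SE). With TMM scaling the log2 ratio of means was -2.15 for jgi|Tercla1|422198| and -2.07 for jgi|Tercla1|1086342|, and with DESeq2 size factors -2.17 and -2.06. Under either scaling both ratios were beyond 4-fold, so the place of this pair inside the limit depends on the scaling.

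Nearest to equality between the regimes was jgi|Tercla1|1304555| (2442 bases), at 297, 162 and 334 CPM in drought roots, 337, 240 and 213 CPM in well-watered roots, and 19.1, 13.8 and 14.4 CPM in cultures. Its mean was 264 ± 90.8 CPM in drought roots, against 263 ± 65.1 CPM in roots with ample water (SD, n = 3 each). jgi|Tercla1|1203999| (2936 bases) followed, with means of 125 ± 45.3 CPM in drought roots, 127 ± 26.7 CPM in well-watered roots and 4.84 ± 4.38 CPM in cultures (SD, n = 3 each). In both, drought replicate 2 was the lowest of the 6 root libraries and well-watered replicate 1 was the highest of its group.

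Agreement among replicates differed widely between members. The within-group SD of log2(CPM + 0.5), pooled over the root groups, ran from 0.12 to 1.86 with a median of 0.55, against a median of 0.41 in the comparison set. The steadiest member was jgi|Tercla1|1140721| (2700 bases), at 214, 202 and 210 CPM in drought roots, 184, 225 and 225 CPM in well-watered roots, and 20.2, 28.7 and 28.0 CPM in cultures. Its 6 root libraries thus lay within a narrow band with no separation between the regimes. The next steadiest, jgi|Tercla1|1141374| (1056 bases), had 21.9, 23.1 and 25.8 CPM in drought roots, 36.7, 31.2 and 36.8 CPM in well-watered roots and 24 reads in cultures. Its drought libraries were all below its well-watered libraries, although the means differed by only 1.48-fold and its fitted log2 fold change was -0.71 ± 0.36 (SE).

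The least steady member was jgi|Tercla1|1193815| (1278 bases), at 3.47, 127 and 50.4 CPM in drought roots, 125, 69.1 and 88.5 CPM in well-watered roots, and 2.59, 1.88 and 0 CPM in cultures. Its drought libraries spanned both sides of the well-watered ones. A share of 95.6% of the counted reads was not unique to it, which makes its level uncertain. The next was jgi|Tercla1|380397| (866 bases), without shared reads, at 77.9, 8.75 and 155 CPM in drought roots, 135, 85.0 and 92.0 CPM in well-watered roots and 18 reads in cultures, so that drought replicate 2 alone was more than 8 times lower than either other drought library.

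Drought replicate 2 was the lowest drought library in 96 members, or 69.1%, against 41.0% of the comparison set, and the highest in 29, or 20.9%, against 45.4%. Relative to the mean log2 level of drought replicates 1 and 3, it differed by a median of -0.71 over the members and 0.05 over the comparison set. It was at least 2-fold lower in 50 members, or 36.0%, against 11.2%. Well-watered replicate 1 was the lowest of its group in 76 members, or 54.7%, against 31.4%, with a median difference from replicates 2 and 3 of -0.26 over the members and 0.19 over the comparison set. In 61 members, or 43.9%, both of these libraries were below the others of their group, against 19.1% of the comparison set. No test was made of these shares, since gene models of one library are not replicates, and what sets these libraries apart was not tested. Between the other libraries of a group the members were about as steady as the comparison set: the median SD of log2 levels was 0.15 in both for drought replicates 1 and 3, and 0.17 in the members and 0.20 in the comparison set for well-watered replicates 2 and 3.

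**Figure D5:**
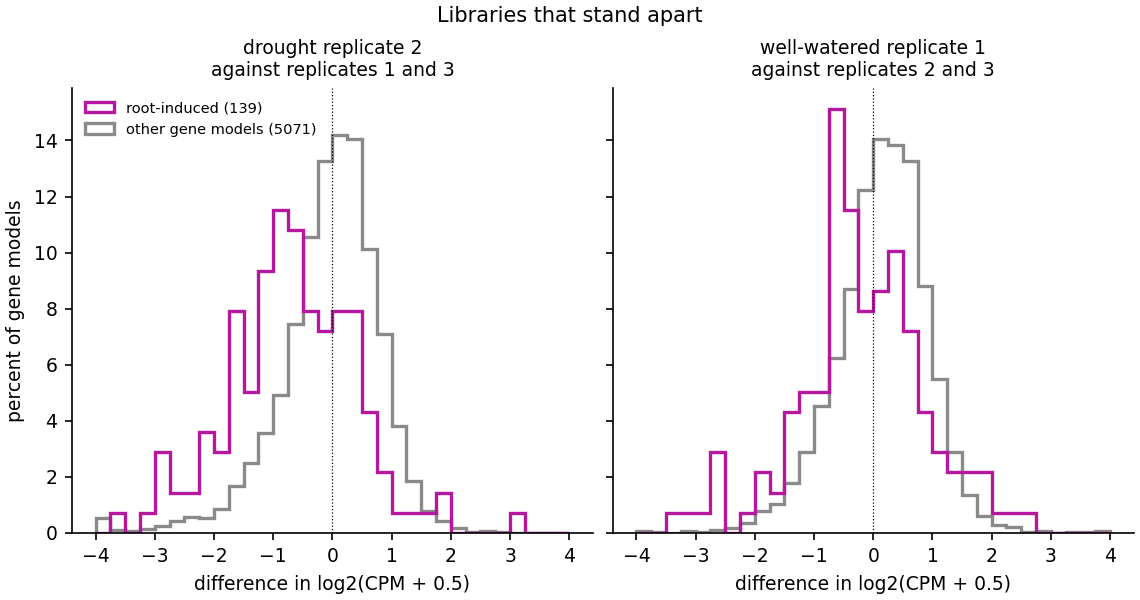
Distribution of the log2 difference between drought replicate 2 and the mean of drought replicates 1 and 3 (left), and between well-watered replicate 1 and the mean of replicates 2 and 3 (right), as percent of gene models, for the 139 gene models and the 5071 others; differences beyond 4 are drawn in the outermost bin. The median of the 139 gene models is -0.71 on the left and -0.26 on the right, and that of the others is 0.05 and 0.19.

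The likeness of each member to the rest of the set was measured as the Pearson correlation of its log2(CPM + 0.5) with the log2 summed level of the other members over the 6 root libraries, after the group means were taken out. It is a description over 6 libraries that share their depths. The summed level of the set was 2.83% of reads in drought replicate 2, against 5.44% and 5.45% in drought replicates 1 and 3. In well-watered roots it was 3.68% to 3.88%. The correlation therefore mostly follows how a member stood in drought replicate 2, and abundant members weigh most in the sum. The correlation was over 0.8 in 45 members and below 0 in 36, with a median of 0.58, so the members did not all follow the sum. Nearest to the summed level of the rest were jgi|Tercla1|1250088| (975 bases), with a correlation of 0.99, and jgi|Tercla1|1276316| (648 bases), also with 0.99. jgi|Tercla1|1250088| had 1069, 130 and 1179 CPM in drought roots, 1120, 807 and 748 CPM in well-watered roots, and 100.2, 91.4 and 82.5 CPM in cultures. jgi|Tercla1|1276316| had 85.7, 54.5 and 92.2 CPM in drought roots, 106, 101 and 100.0 CPM in well-watered roots, and 13 reads in cultures. Both were lowest in drought replicate 2.

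Gene length was not used in the rule. The deposited RPKM imply lengths of 204 to 10084 bases for the members, with a median of 1375 and quartiles of 963 and 2030. In the comparison set the median was 1559 with quartiles of 1040 and 2312. Models of up to 600 bases were 12 of the members, or 8.63%, against 6.45%, and models of at least 3000 bases were 13, or 9.35%, against 13.4%. Lengths that are multiples of 3 made up 62.6% of the members and 64.7% of the comparison set. Across the members, the correlation of log2 length with log2 root CPM was 0.03.

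The longest member was jgi|Tercla1|121269| (10084 bases), at 274, 186 and 336 CPM in drought roots, 427, 583 and 605 CPM in well-watered roots, and 14.2, 34.5 and 24.5 CPM in cultures. Every drought library of it was below every well-watered library. jgi|Tercla1|1277286| (6759 bases) had 1280, 856 and 1471 CPM in drought roots, 476, 863 and 1053 CPM in well-watered roots, and a mean of 26.0 ± 6.48 CPM in cultures (SD, n = 3), with overlap between the regimes. Per length, this pair averaged 26.3 and 178 RPKM in drought roots and 53.4 and 118 RPKM in well-watered roots.

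The shortest member was jgi|Tercla1|1229479| (204 bases), at 77.0, 34.99 and 62.7 CPM in drought roots, 42.0, 44.0 and 67.8 CPM in well-watered roots, and 5.80, 6.84 and 5.40 CPM in cultures, again with overlap. Next came jgi|Tercla1|1093724| and jgi|Tercla1|1266155|, both with 312 bases, of which jgi|Tercla1|1266155| had the higher root mean. jgi|Tercla1|1266155| had 745, 1120 and 706 CPM in drought roots, 531, 91.7 and 92.0 CPM in well-watered roots, and 13.7, 24.5 and 19.8 CPM in cultures. All drought libraries of it were above all well-watered ones, and the ratio of means was 3.60, or 9.33 without well-watered replicate 1. Among the 6 root libraries of this gene model, drought replicate 2 was the highest.

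Reads shared with other gene models were few for most of the set: 111 members had none, and 28 had some. More than 10% of reads were shared in 15 members, or 10.8%, against 5.52% of the comparison set, and more than 50% in 10 members, or 7.19%, against 3.29%. The levels of these members are uncertain, because the sources used here do not give how shared reads were divided. When the rule was applied to unique gene reads, 128 of the 139 were chosen again and 1 gene model was added, and all 11 that dropped out had more than 10% of reads shared. The 15 members averaged 27.9 to 594 CPM over the roots, and the drought mean was the lower one in 9 of them.

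Among them 3 had no unique read in any library: jgi|Tercla1|1247127|, jgi|Tercla1|1219311| and jgi|Tercla1|1243149|. jgi|Tercla1|1243149| (1304 bases) had no read in cultures either and the lowest root mean of the 3. The other two had the same length of 875 bases. jgi|Tercla1|1247127| had 185, 93.7 and 166 CPM in drought roots, 421, 366 and 406 CPM in well-watered roots, and 16.0, 13.8 and 14.2 CPM in cultures. jgi|Tercla1|1219311| had 189, 92.6 and 162 CPM in drought roots, 416, 385 and 369 CPM in well-watered roots, and 16.5, 13.4 and 16.1 CPM in cultures. This pair was lower in every drought library than in every well-watered library, and with no unique read their separate levels cannot be resolved from these counts.

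The limits of the rule cut through continuous distributions. Nearest inside the 8-fold limit were jgi|Tercla1|158833|, whose well-watered mean of 171 CPM was 8.05 times its culture mean of 21.3 CPM, and jgi|Tercla1|819736|, at 40.2 CPM in well-watered roots against 4.95 CPM in cultures, or 8.11 times. Nearest outside, among gene models that met every other condition, were jgi|Tercla1|1238259| and jgi|Tercla1|1190734|. The drought mean of jgi|Tercla1|1238259| was 76.2 CPM, or 7.98 times its culture mean of 9.56 CPM. That of jgi|Tercla1|1190734| was 103 CPM against 13.1 CPM in cultures, or 7.83 times. In all, 700 gene models, this pair included, failed the 8-fold limit alone, 72 the level of 20 CPM alone and 9 the condition on single libraries alone. Between the regimes, the largest ratio of means among the members was 3.96, and the smallest among gene models failing that limit alone was 4.22. The lower of the 2 root means was 20.1 CPM at its lowest among the members. Among gene models failing the 20 CPM level alone it was 18.5 CPM at its highest.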

How the data were processed

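Per the file headers, the authors deposited total gene reads and unique gene reads, both whole-number counts, and RPKM for the same 12765 gene models in each of 9 libraries. Per the submitters' processing notes, the tools were FastQC, Bowtie2 (2.3.0) and SAMtools (1.7). Which program counted reads, on which genome build and with what strand setting, the sources used here do not give. RPKM as deposited was checked against total gene reads and gave 1 whole-number length per gene model. CPM were computed from total gene reads and column sums. Each comparison was fitted on its own 6 libraries and all genes passing filterByExpr with edgeR 4.0.16 in R 4.3.3 (TMM, robust quasi-likelihood F test, Benjamini-Hochberg adjusted p under 0.05); SEs come from the F statistic. The step was also run on simulated counts, drawn independently for each gene model and with no library set apart. That run therefore does not cover the departures of drought replicate 2, well-watered replicate 1 and culture replicate 1. DESeq2 1.42.0 and limma 3.58.1 served as alternatives, beside other scalings, filters and limits of the rule, unique reads, thinning, a replicate block and leaving out each library.

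Replicates differed by more than sampling noise in every group, with a chi-square per degree of freedom of at least 4.09. P-values set the difference between groups against the spread between these libraries, which edgeR estimates with information shared across gene models. The members and lists were chosen with earlier results of these data known. Named gene models are, per criterion, the 2 highest in CPM and in RPKM, without a culture read, with the largest, smallest and most equal ratio of regimes, least and most variable, longest, shortest, most shared, nearest the 8-fold limit and most like the others; ties went to the higher root mean, and any further one is marked as chosen later or named for a tie. Intervals and floors cover counting error only.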

Additional observations from a re-analysis of the deposited data

How the results depend on the processing

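The number of gene models chosen was 139, and 242 with a 4-fold limit over culture or 88 with the regimes held within 2-fold; leaving out single libraries gave 127 to 158, and the other 9 planned settings gave 94 to 170. Without drought replicate 2 and well-watered replicate 1 together, a setting added after the data were seen, 152 were chosen, 122 of them among the 139. Thinning every library to 869998 reads gave 137, 125 of them among the 139. Without the 2 most abundant members the summed level was 3.29% in drought roots, 3.07% in well-watered roots and 0.0942% in cultures. With members of at most 10% shared reads, also added later, it was 4.40%, 3.46% and 0.139%. The median log2 ratio of drought to well-watered roots was -0.16 with TMM and -0.17 with DESeq2 size factors, and between -0.0733 and 0.25 when single libraries were left out. Members with all drought libraries above all well-watered ones numbered 16 with TMM and 15 with DESeq2 size factors, and those with all drought libraries below 30 and 29. Their shares are given above beside those of all gene models tested. Members with over 10% shared reads were 3.88% of those chosen on unique reads.

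Leaving out single libraries gave 874 to 1747 called gene models between the regimes. For drought roots against culture it gave 2494 to 5701, and for well-watered roots against culture 2945 to 5317. Between the regimes 7 to 37 of the 139 members were called. At the lowest this was 5.04%, against 10.2% of all gene models tested, and at the highest 26.6%, against 20.7%. A joint fit of 9 libraries called 2420 between the regimes. With a replicate block, fitted to the same gene models, 1335 of 8029 gene models and 24 of 139 members were called between the regimes. For drought roots against culture, 3025 of 9001 gene models and 137 of 139 members were called. For well-watered roots against culture, the counts were 3854 of 8919 and 139 of 139. The members were chosen on these same comparisons, so nothing is read from their counts. The labels give same-numbered libraries only a shared number, and correlations of their deviations were between -0.05 and 0.09. These values cannot show whether such libraries were handled together. The cause of the shifts between settings was not tested. Counting depth limits the well-watered libraries most: a member's lowest root count was 8 reads.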
